A study of Mus musculus with 12 samples.

Results

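Axon guidance genes that encode ligands and their receptors were examined for open chromatin in recently active neurons of the mouse infralimbic prefrontal cortex. Members were the protein-coding genes whose symbols belong to the semaphorin (classes 3 to 7), plexin, Eph receptor, ephrin, Robo, Slit, netrin, Unc5, neuropilin or Dcc families. The symbols gave 70 genes of the 21883 protein-coding genes in the RefSeq table of GRCm38.p6, the build also called mm10. Of these, 35 encode ligands and 34 encode receptors. Unc5cl carries the letters of the Unc5 family but is not a netrin receptor, and it was kept as a member in neither class.

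Assay for transposase-accessible chromatin by sequencing (ATAC-seq), in which a transposase inserts adapters into open DNA, was applied to cells sorted for NeuN, a neuronal nuclear protein, and for Arc, an activity-induced gene product. The animals were male C57BL/6 mice aged 10 to 12 weeks, and every mouse had been fear conditioned with 3 pairings of a tone and a foot shock. On the next day, in a new context, mice of the extinction group (EXT) were played 60 of the tones, while the retention control (RC) mice were kept there for as long with none, and tissue was taken at once. Each library pooled 5 mice and used 50000 cells, so a replicate is a pool. The lists of EXT replicate 1, EXT replicate 2 and RC replicate 3 cover the whole genome and hold 80735, 123375 and 97961 peaks, from 65.0, 57.7 and 73.8 M tags. As held here, the lists of RC replicates 1 and 2 stop within chromosome 1, at positions 166286196 and 37624379. With a single complete RC list, no test between the groups was possible outside chromosome 1. Of the complete lists, EXT replicate 2 stood apart with the most and the widest peaks, with a median width of 242 bp in EXT replicate 2, 206 bp in EXT replicate 1 and 204 bp in RC replicate 3. Of the neuron markers, 6, 7 and 6 of 7 had a peak at a gene end in EXT replicate 1, EXT replicate 2 and RC replicate 3, Arc among them in each list. Of the 21 astrocyte, oligodendrocyte, microglia and endothelial markers counted jointly, 5, 6 and 5 had such a peak in the same lists. Gfap, Sox10, Olig1 and Cldn5 were among them in each, and of the microglia markers 1, 0 and 0 of 5 had one. The part of other cell types in the members' peaks was not tested.

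Growing axons steer by ligands that are secreted, as semaphorin 3, Slit and netrin proteins are, or held on the surface of neighbouring cells, as ephrins and most other semaphorins are. Semaphorins are read by plexins, class 3 semaphorins mostly with a neuropilin as co-receptor, ephrins by Eph receptor tyrosine kinases, Slits by Robo proteins, and netrin-1 by Dcc and the Unc5 proteins. In the adult cortex many of these proteins remain in use at synapses and dendritic spines. An accessible promoter marks a gene as open to transcription factors and does not measure its transcription.

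The promoters below are shown because the results turn on them. They are RefSeq promoter windows (GRCm38.p6), each 300 bases long from 250 before to 50 after a listed transcription start, read 5′ to 3′ on the strand of the gene. Capitals mark the bases that lie within peaks of all 3 complete lists, except in Sema6b, where they mark the bases within peaks of both EXT lists. Sema4f lies at chr6:82939720-82940019 on the minus strand, Sema6c at chr3:95160170-95160469 on the plus strand and Sema6b at chr17:56140294-56140593 on the minus strand. Epha7 lies at chr4:28812881-28813180 on the plus strand, Ephb1 at chr9:102354644-102354943 on the minus strand and Robo1 at chr16:72662899-72663198 on the plus strand. Robo1 was chosen after its values were seen.
Sema4f: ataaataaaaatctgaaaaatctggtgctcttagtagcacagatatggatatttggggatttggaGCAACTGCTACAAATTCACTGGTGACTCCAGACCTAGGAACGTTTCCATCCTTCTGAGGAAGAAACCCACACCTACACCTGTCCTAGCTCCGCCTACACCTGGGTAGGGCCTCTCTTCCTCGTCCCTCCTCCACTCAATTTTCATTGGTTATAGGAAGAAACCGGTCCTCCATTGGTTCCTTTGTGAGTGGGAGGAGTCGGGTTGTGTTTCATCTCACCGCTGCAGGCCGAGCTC
Sema6c: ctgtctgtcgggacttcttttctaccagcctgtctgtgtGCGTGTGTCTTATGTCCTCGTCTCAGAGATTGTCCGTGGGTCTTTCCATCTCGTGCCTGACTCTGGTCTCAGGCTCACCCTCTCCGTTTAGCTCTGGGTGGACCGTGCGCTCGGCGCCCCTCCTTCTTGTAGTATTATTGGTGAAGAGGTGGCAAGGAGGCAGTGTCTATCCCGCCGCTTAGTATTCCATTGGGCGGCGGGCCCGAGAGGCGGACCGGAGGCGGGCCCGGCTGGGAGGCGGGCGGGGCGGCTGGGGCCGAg
Sema6b: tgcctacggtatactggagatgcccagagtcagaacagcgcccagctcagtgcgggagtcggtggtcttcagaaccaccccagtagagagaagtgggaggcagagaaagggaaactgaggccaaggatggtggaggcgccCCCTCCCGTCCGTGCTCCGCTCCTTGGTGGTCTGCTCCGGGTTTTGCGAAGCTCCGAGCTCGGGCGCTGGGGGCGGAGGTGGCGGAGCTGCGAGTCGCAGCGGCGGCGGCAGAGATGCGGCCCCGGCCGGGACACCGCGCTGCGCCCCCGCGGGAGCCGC
Epha7: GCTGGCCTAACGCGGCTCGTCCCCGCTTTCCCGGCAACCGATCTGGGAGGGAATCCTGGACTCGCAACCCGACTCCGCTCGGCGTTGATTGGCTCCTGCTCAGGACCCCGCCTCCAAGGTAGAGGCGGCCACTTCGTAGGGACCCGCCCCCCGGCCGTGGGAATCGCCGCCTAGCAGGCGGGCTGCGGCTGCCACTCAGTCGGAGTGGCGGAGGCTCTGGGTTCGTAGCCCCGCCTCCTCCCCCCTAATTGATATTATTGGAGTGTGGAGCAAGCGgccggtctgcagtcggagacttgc
Ephb1: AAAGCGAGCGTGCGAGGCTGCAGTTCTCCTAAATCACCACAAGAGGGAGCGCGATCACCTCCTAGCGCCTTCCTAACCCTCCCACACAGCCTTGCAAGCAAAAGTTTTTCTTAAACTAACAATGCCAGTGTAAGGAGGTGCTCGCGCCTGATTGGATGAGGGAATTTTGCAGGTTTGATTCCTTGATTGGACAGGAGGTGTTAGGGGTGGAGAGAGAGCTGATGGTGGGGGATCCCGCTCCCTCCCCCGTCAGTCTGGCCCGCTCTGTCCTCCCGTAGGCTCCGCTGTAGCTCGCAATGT
Robo1: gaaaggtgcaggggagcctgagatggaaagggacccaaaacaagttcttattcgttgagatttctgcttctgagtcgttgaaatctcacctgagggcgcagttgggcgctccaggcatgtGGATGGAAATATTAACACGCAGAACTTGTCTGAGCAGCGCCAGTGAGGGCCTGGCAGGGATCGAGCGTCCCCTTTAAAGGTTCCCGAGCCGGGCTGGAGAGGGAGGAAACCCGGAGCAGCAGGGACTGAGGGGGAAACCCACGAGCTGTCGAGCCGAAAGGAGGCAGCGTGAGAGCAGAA

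The windows differ in how much of them was open. Ephb1 had all 300 bases within peaks of the 3 lists, Epha7 had 276, Sema6c 260 and Sema4f 235. In Sema6b, 165 bases lay within a peak of EXT replicate 1 and 160 within a peak of EXT replicate 2, against 0 bases in RC replicate 3. Robo1 had 242 bases in EXT replicate 1, 288 in EXT replicate 2 and 180 in RC replicate 3. The Sema6b window held 29 CpG sites and was 69.0% G and C, and the Sema4f window held 7 and was 48.7% G and C. Sema4f was the lowest in G and C of the members' windows with a peak in all 3 lists. This pair of windows does not show how openness went with base composition, for which the values of all windows are given below.

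A member counted as open at an end where any peak shared 1 bp or more with a window reaching 1 kb out from, and 1 kb into, its RefSeq span at the lower or the upper end. This held for 41 of 70 members in EXT replicate 1 (58.6%, exact 95% interval 46.2 to 70.2%), where the share over all protein-coding genes was 53.3%. It held for 51 members in EXT replicate 2 (72.9%, 60.9 to 82.8%), against 61.1% over all genes, and for 45 in RC replicate 3 (64.3%, 51.9 to 75.4%), against 56.0%. The members' share was above that of all genes in every list, and the share of all genes lay within the members' exact interval in each. The intervals cover counting error only. In pooled cells, an end open in fewer cells and an end less open in each cell cannot be told apart. The mean of the EXT lists less RC replicate 3 was 1.43 percentage points, small beside the SD of 10.1 between the EXT lists, and the EXT lists lay on either side of the RC list. With lists cut to equal length the difference was 3.57 with an SD of 1.01 between the EXT lists, so the size beside the spread depended on list length.

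**Figure D1:**
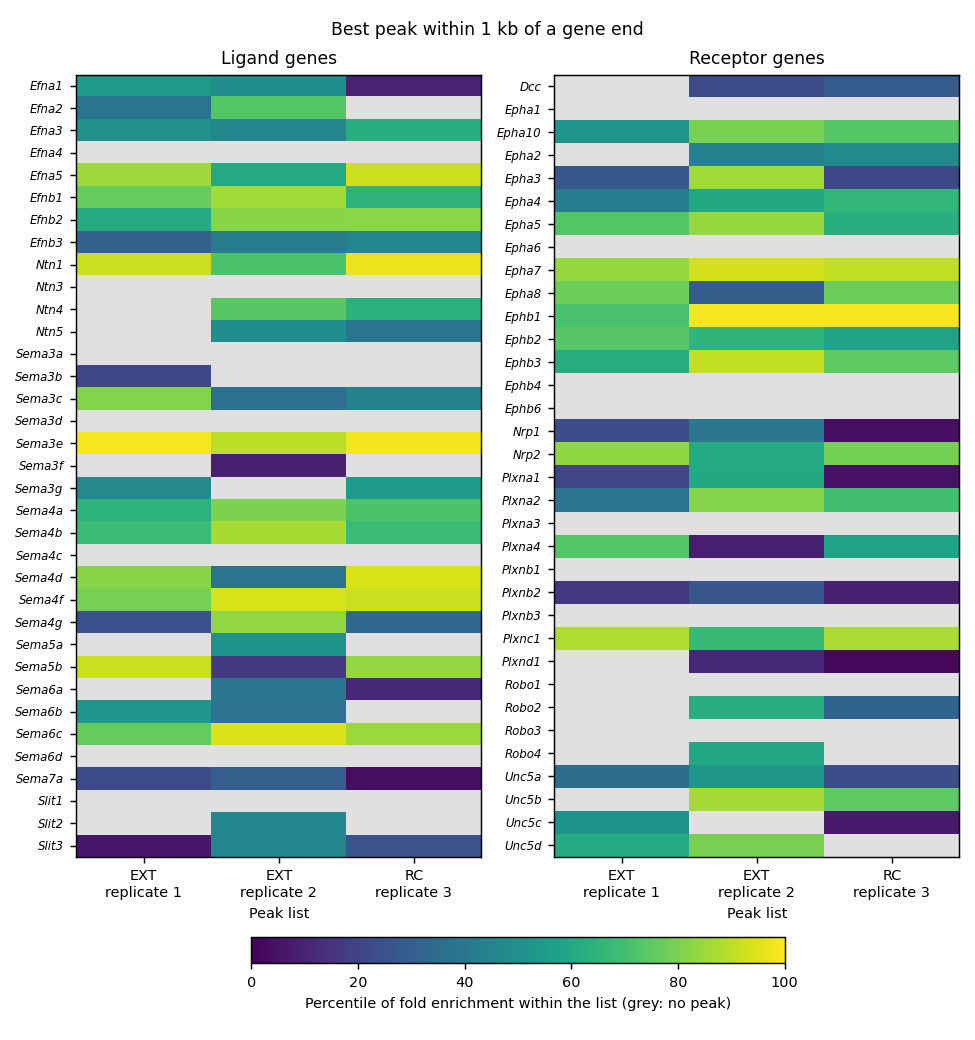
Colour gives the percentile, within its own list, of the fold enrichment of the best peak within 1 kb of a gene end, for 35 ligand genes (left) and 34 receptor genes (right) in EXT replicate 1, EXT replicate 2 and RC replicate 3; grey marks no peak. Grey rows in all columns are the 16 members with no end peak, and the most enriched rows include Sema3e and Ephb1.

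An end peak stood in all 3 lists for 35 members, 50.0% of them, where the figure over all protein-coding genes was 49.0%, and in none for 16 (22.9%), against 35.5% over all genes. The share open in every list was thus close to that of all genes. It stood in EXT replicate 2 and RC replicate 3 alone for 8 members (11.4%), beside 4.69% of all genes. These were the netrins Ntn4 and Ntn5, the semaphorin Sema6a, the netrin receptors Dcc and Unc5b, the Eph receptor Epha2, the semaphorin 3E receptor Plxnd1 and the Slit receptor Robo2. EXT replicate 2 alone had one at Sema3f, Sema5a, Slit2, Robo4 and Unc5cl, 5 members, beside 5.4% of all genes. Sema3g and Unc5c had one in EXT replicate 1 and RC replicate 3, 2 members beside 1.27% of all genes, and Sema3b in EXT replicate 1 alone, 1 member beside 1.03%.

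Ligand and receptor genes had accessible ends at rates whose order differed between lists and measures. Among ligands the share was 62.9%, 74.3% and 62.9% in EXT replicate 1, EXT replicate 2 and RC replicate 3, and among receptors 55.9%, 70.6% and 67.6%. The difference was 1.96 ± 6.07 percentage points (mean ± SD over the 3 lists), less than its own spread, and its sign in RC replicate 3 was opposite to that in the EXT lists. With lists cut to equal length it was 6.02 ± 1.72, larger than its spread. At the listed promoter windows receptors were higher in each list, with a peak in 36.6%, 51.2% and 29.3% of ligand windows and 47.1%, 73.5% and 58.8% of receptor windows. These are shares of windows, not of genes, since some genes list several starts and others none. The windows were 41 from 29 ligand genes and 34 from 30 receptor genes. Within the ligands, the 21 membrane-bound ones (ephrins and semaphorins of classes 4 to 7) had an end peak in 76.2%, 85.7% and 71.4% of genes. The 14 secreted ones (class 3 semaphorins, Slits and netrins) had one in 42.9%, 57.1% and 50.0%. The secreted ligands were lower in each list, and the exact intervals of the classes overlapped (17.7 to 71.1% for secreted against 52.8 to 91.8% for membrane-bound ligands in EXT replicate 1). The secreted ligands were also longer, with a median span of 152.5 kb against 23.3 kb. The part of gene length in this contrast was not tested.

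Set against gene length, the classes parted. Ligand genes span a median of 29.0 kb and receptor genes 92.2 kb, beside 17.2 kb over all protein-coding genes. Among spans under 30 kb, 13, 13 and 11 of 18 ligands had an end peak in EXT replicate 1, EXT replicate 2 and RC replicate 3, and 3, 5 and 4 of 12 receptors did. Among spans of 100 kb and over the order turned round, with 7, 11 and 9 of 15 ligands and 13, 14 and 14 of 17 receptors. As shares, the short ligands stood at 72.2%, 72.2% and 61.1%, the short receptors at 25.0%, 41.7% and 33.3%, and all short protein-coding genes at 48.3%, 55.2% and 51.1%. The long ligands stood at 46.7%, 73.3% and 60.0%, the long receptors at 76.5%, 82.4% and 82.4%, and all long protein-coding genes at 63.4%, 73.6% and 65.5%. The split by span was added after the data were seen, and genes of a class are not replicates, so no test was made.

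**Figure D2:**
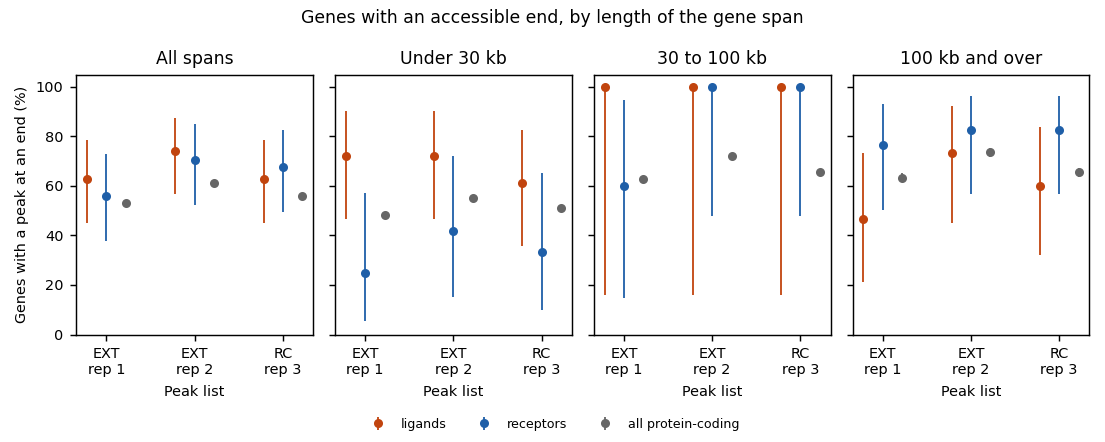
Points give the percent of genes with a peak within 1 kb of a gene end in each list, for ligands, receptors and all protein-coding genes, with exact 95% intervals as bars; panels split the genes by span. Ligands lie above receptors under 30 kb (13 of 18 against 3 of 12 in EXT replicate 1) and below them at 100 kb and over (7 of 15 against 13 of 17).

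End peaks of the members stood more often at the 5′ end than at the 3′ end. Among the 60 members whose strand could be read from a listed start, 32, 38 and 36 had a peak at the 5′ end in EXT replicate 1, EXT replicate 2 and RC replicate 3 (53.3%, 63.3% and 60.0%), where the shares over all such genes were 50.0%, 56.4% and 52.0%. At the 3′ end 7, 9 and 5 of the 60 had one, beside 11.6%, 17.1% and 14.1% over all. The membrane semaphorin gene Sema4a and the netrin receptor gene Unc5a had end peaks at the 3′ end alone in each list, with folds of 4.50 and 7.10 for Sema4a in the EXT lists and 5.21 in RC replicate 3. Their promoters were not closed throughout. Listed windows inside the spans had a peak in both EXT lists for Sema4a and in EXT replicate 2 for Unc5a. The hexokinase gene Hk3, its span taken with 1 kb either side, also reaches an end window of Unc5a.

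Of the ligands, Sema3e, Sema4f, Ntn1, Sema6c and Efna5 had the most enriched end peaks by mean percentile of the fold enrichment within its own list. Fold enrichment is the authors' ratio of coverage at the summit to local background. Sema3e (chr5:14025276-14256689), which encodes a secreted semaphorin that can bind plexin-D1 without a neuropilin, had folds of 12.07 and 9.24 in EXT replicates 1 and 2 and 11.56 in RC replicate 3. Its peak was 162 bp wide at chr5:14025830-14025991 with the same bounds in every list, at percentiles 98.6, 90.0 and 98.2. Plxnd1, the gene of its receptor, had no end peak in EXT replicate 1 and weak ones in EXT replicate 2 (fold 2.79, percentile 11.2) and RC replicate 3 (fold 2.23, percentile 2.1). By end peaks, the ligand and receptor genes of this pair therefore stood near opposite ends of the ranking where both had a peak. The order was different at the listed promoter windows. The Sema3e peak lay outside its window, which had no peak in any complete list. The Plxnd1 window had a peak in EXT replicate 2 and RC replicate 3.

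Sema4f (chr6:82911884-82939769), which encodes a membrane semaphorin, had folds of 5.68 and 10.87 in the EXT lists and 8.23 in RC replicate 3, all over the capital bases printed above. Sema6c (chr3:95160420-95174050), another membrane semaphorin, had folds of 5.38 and 10.91 in the EXT lists and 6.76 in RC replicate 3. In both genes EXT replicate 2 was highest and EXT replicate 1 lowest, so the groups overlapped. Ntn1 (chr11:68209364-68386826), which encodes netrin-1, had folds of 8.04 and 5.93 in the EXT lists and 10.54 in RC replicate 3. Its peak began at 68386698 in all lists and was 320, 330 and 320 bp wide. Efna5 (chr17:62602957-62881317), the gene of a membrane-anchored ephrin used in topographic mapping, had folds of 6.53 and 5.08 in the EXT lists and 8.27 in RC replicate 3. For Ntn1 and Efna5 the RC value was the highest of the 3, but with 1 complete RC list this has no replicate check.

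Of the receptors, Epha7, Ephb1, Plxnc1, Ephb3 and Nrp2 led by the same measure. Epha7 (chr4:28813066-28967503), which encodes an Eph kinase that binds A-type ephrins, had folds of 6.37 and 10.55 in the EXT lists and 7.89 in RC replicate 3. Its peak was 440, 522 and 481 bp wide and covered most of the printed promoter. Ephb1 (chr9:101922128-102354693), a kinase for B-type ephrins, had its best peak upstream of the promoter, 160 bp wide with the same bounds in all lists, with folds of 4.97 and 14.71 in the EXT lists and 12.14 in RC replicate 3. The wider peak over its promoter was less enriched, with folds of 4.94 and 7.66 in the EXT lists and 4.65 in RC replicate 3. Ephb3 (chr16:21204620-21223309), a further B-type receptor, had folds of 4.33 and 9.53 in the EXT lists and 5.62 in RC replicate 3. In Epha7 and Ephb3, as in Sema4f and Sema6c, RC replicate 3 lay between the EXT lists.

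Plxnc1 (chr10:94790866-94945015), which encodes the receptor of semaphorin 7A, had folds of 7.03 and 5.58 in the EXT lists and 7.14 in RC replicate 3. These come from different peaks, since the best peak lay at chr10:94945141-94945300 in EXT replicate 1 and chr10:94945070-94945300 in RC replicate 3, and at chr10:94943500-94944496 in EXT replicate 2. Cep83, its span taken with 1 kb either side, also reaches an end window of Plxnc1. Sema7a itself had an end peak in each list at low enrichment, with folds of 2.94 and 3.49 in the EXT lists and 2.34 in RC replicate 3. Nrp2 (chr1:62703317-62818692), a co-receptor for class 3 semaphorins, had folds of 6.27 and 5.10 in the EXT lists and 5.97 in RC replicate 3. Its relative Nrp1 was weaker, with 2.97 and 3.91 in the EXT lists and 2.34 in RC replicate 3. Another protein-coding gene, its span taken with 1 kb either side, reached an end window of 23 members, 13 ligands and 10 receptors.

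The best end peaks of the 35 members overlapped across all lists for 26 of them. Efna5, Sema3e, Sema4d and Ephb1 had identical bounds in every list, each 160 to 162 bp wide. Peaks this narrow are close to the 150 bp to which the authors extended each tag, with duplicates kept, and in the whole lists 30.6%, 24.7% and 31.9% of peaks were 160 bp wide or less in EXT replicate 1, EXT replicate 2 and RC replicate 3. Among the members' best end peaks, 9, 11 and 12 were at most 161 bp wide. The part of duplicate tags in these peaks was not tested.

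Both EXT lists, but not RC replicate 3, had an end peak at 3 members (4.29%), the ephrin Efna2, the semaphorin Sema6b and the netrin receptor Unc5d, where the share over all protein-coding genes was 2.01%. The reverse, RC replicate 3 and neither EXT list, held for 0 members, beside 1.06% of all genes. Efna2 had folds of 3.36 and 6.20 in the EXT lists, from different peaks, at the 5′ end in EXT replicate 1 and at the 3′ end in EXT replicate 2. The nearest RC replicate 3 peak to an Efna2 window lay 165 bp outside it, with a fold of 4.20. For Sema6b the promoter peak had folds of 3.81 and 3.79 in the EXT lists. The nearest RC replicate 3 peak to either window was 1062 bp from the one at the other, 3′ end. Both EXT lists had a peak overlapping that RC replicate 3 peak. Lrg1, its span taken with 1 kb either side, also reaches an end window of Sema6b. For Unc5d the peak at chr8:29219585-29219789 in EXT replicate 1 had a fold of 4.29, and the one at chr8:29219561-29219974 in EXT replicate 2 a fold of 6.94. An RC replicate 3 peak with a fold of 7.09 lay 56 bp outside the window at the lower Unc5d end, so counting Unc5d among the 3 rests on that distance. Sema6b and Unc5d had the same end region open in both EXT lists and Efna2 did not. With 1 complete RC list, a difference between the groups cannot be told apart from a difference between libraries.

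No end peak appeared in any complete list for 7 ligands (Efna4, Ntn3, Sema3a, Sema3d, Sema4c, Sema6d and Slit1) and 9 receptors (Epha1, Epha6, Ephb4, Ephb6, Plxna3, Plxnb1, Plxnb3, Robo1 and Robo3). Of these 16 genes, 15 had a peak elsewhere in the span, and Efna4, the shortest gene of the group, had none in any list. The windows missed some promoters, because the annotated span can begin far upstream of a listed start. Sema4c, the kinase-inactive Eph receptor Ephb6 and the Slit receptor Robo1 had a peak over a listed start in all 3 lists. For Epha6 EXT replicate 2 alone had one. Sema6d had a peak 13 bp outside its window in EXT replicate 2 (fold 13.51) and RC replicate 3 (fold 7.22), so that gene sits at the edge of the rule.

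The Slit and Robo genes show how far ends and interiors can differ. Slit3 had a weak end peak in each list, with folds of 2.50 and 4.14 in the EXT lists and 2.99 in RC replicate 3, Slit2 had one in EXT replicate 2 alone (4.25) and Slit1 had none. Of the Robo genes, Robo1 and Robo3 had none in any list, and Robo2 had one in EXT replicate 2 (5.16) and RC replicate 3 (3.18). Robo4, known from endothelial cells, had one in EXT replicate 2 alone (4.98). Listed promoter windows gave other calls. The Slit2 window had a peak in EXT replicate 1 alone, and a Robo2 window away from the span ends had one in all 3 lists. Inside the spans the order was different. Slit3 held 36 and 79 peaks in the EXT lists and 60 in RC replicate 3, and Robo2 held 38 and 67 in the EXT lists and 66 in RC replicate 3. Slit3 thus combined low-ranked end peaks (percentiles 5.6, 45.4 and 25.4) with, beside Robo2, the most interior peaks of all members.

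Robo1, a gene of 1020.0 kb, held 21 and 43 peaks in the EXT lists and 30 in RC replicate 3. Its listed start lies 635.6 kb from the 5′ end of the span, and the peak over that window had folds of 3.89 and 4.92 in the EXT lists and 3.44 in RC replicate 3. The most enriched Robo1 region shared by the lists lay elsewhere, at chr16:72158157-72158316, 160 bp wide, with folds of 15.29 and 10.67 in the EXT lists and 11.27 in RC replicate 3. That region was more enriched than the listed start in every list, and it lay outside the promoter window.

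**Figure D3:**
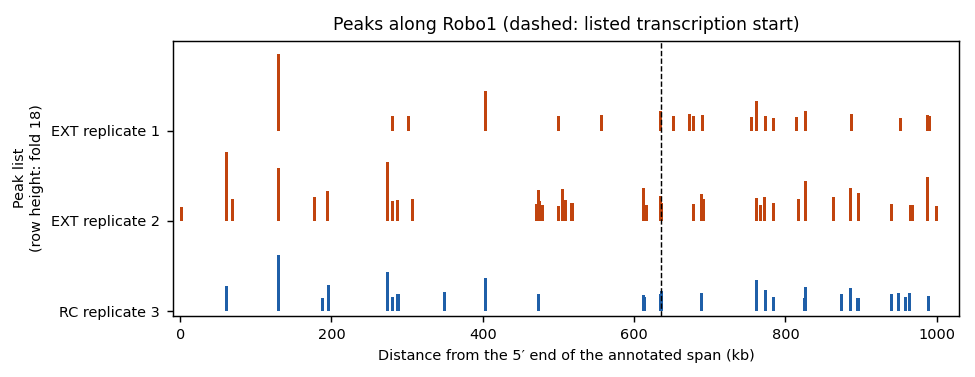
Bars mark peaks along the Robo1 span by distance in kb from its 5′ end, with height proportional to fold enrichment, for EXT replicate 1, EXT replicate 2 and RC replicate 3 from top to bottom; the dashed line is the listed start. A low peak stands at the start (635.6 kb) in every list, and a taller one stands at 130.7 kb.

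The netrin system was uneven. Ntn1 had a strong end peak in every list and Ntn3 none, while Ntn4 had one in EXT replicate 2 (fold 6.22) and RC replicate 3 (4.62), and Ntn5 had one in EXT replicate 2 (4.32) and RC replicate 3 (3.37). The netrin receptor Dcc had weak end peaks in EXT replicate 2 (3.20) and RC replicate 3 (3.08) and none in EXT replicate 1. Of the repulsive receptors, Unc5a had folds of 3.27 and 4.57 in the EXT lists and 2.95 in RC replicate 3. Unc5b had 8.35 in EXT replicate 2 and 5.58 in RC replicate 3, from a 160 bp peak, and Unc5c 3.74 in EXT replicate 1 and 2.47 in RC replicate 3. Each of these genes except Ntn3 had an end peak in at least 1 EXT list, and the ligand Ntn1 was above all its receptors in EXT replicate 1 and RC replicate 3. The listed promoter windows of Ntn3, Ntn4 and Ntn5 had no peak in any complete list. Sec1, its span taken with 1 kb either side, also reaches an end window of Ntn5.

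Nearly every member had a peak somewhere within its span: 63 of 70 in EXT replicate 1, 66 in EXT replicate 2 and 66 in RC replicate 3, where the shares over all protein-coding genes were 66.5%, 72.2% and 69.0%. These genes are long, with a median span of 53.6 kb, and longer spans held more peaks, with Spearman's rho across the 70 members of 0.77, 0.83 and 0.79 (0.66, 0.72 and 0.68 over all genes). The genes of a list share that library's depth, so the coefficients are given without a test. Per 100 kb, the median member held 5.93, 9.70 and 7.99 peaks in EXT replicate 1, EXT replicate 2 and RC replicate 3, beside 4.91, 7.79 and 6.07 over all genes. By the mean the order was opposite, with 6.89, 10.61 and 9.14 for members beside 9.34, 12.09 and 10.54 over all genes. Summed peaks over summed span gave 3.35, 5.82 and 4.58 for members beside 5.19, 7.76 and 6.25, so members were above or below all genes according to the summary used. Ligands held 6.11, 8.94 and 9.75 and receptors 5.51, 10.93 and 7.61, a difference of 0.245 ± 2.09 (mean ± SD over the lists). That difference was far below its spread.

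**Figure D4:**
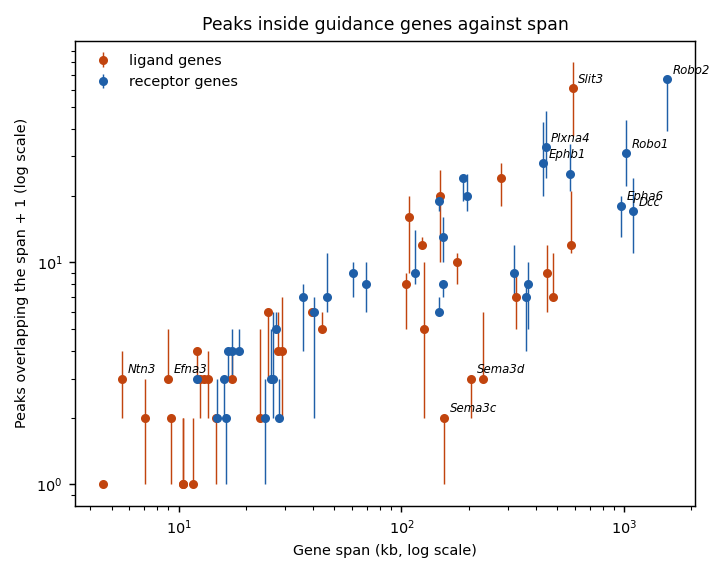
Each point is a gene, by span in kb and by number of peaks overlapping the span plus 1, both on log axes; points are the median of the 3 complete lists and bars run from the lowest to the highest list. Peaks increase with span in both classes, with Slit3 and Robo2 highest, and Sema3c and Sema3d lie low for their length.

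Members with most peaks inside were Slit3, Robo2, Plxna4, Robo1 and Ephb1. Plxna4, a plexin for class 3 and class 6 semaphorins, held 23 and 47 in the EXT lists and 32 in RC replicate 3, and Ephb1 held 19 and 42 in the EXT lists and 27 in RC replicate 3. In each of the 5, EXT replicate 2 had the most and EXT replicate 1 the fewest peaks, as for the lists as a whole. EXT replicate 2 was highest in 41 members and EXT replicate 1 lowest in 36. Per length, the short genes Ntn3, Efna3 and Sema4c were densest, with 35.99, 29.50 and 22.11 peaks per 100 kb averaged over the lists. Ntn3 reached this with 1 and 3 peaks in the EXT lists and 2 in RC replicate 3, so a single peak moves the value by a large step.

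More peaks inside the span in both EXT lists than in RC replicate 3 were found for 6 members (Epha4, Plxna1, Sema4g, Slit2, Unc5c and Unc5d), where the share over all protein-coding genes was 8.48%. Fewer in both EXT lists were found for 11 (Efnb2, Efnb3, Epha2, Epha5, Ephb4, Ntn1, Sema3b, Sema4f, Sema5b, Unc5a and Unc5b), where it was 8.94%. A gene with no peak inside its span in any list can fall in neither count. That held for 5510 of the 21883 protein-coding genes and 1 of the 70 members, so the shares over all genes are not like for like. The largest gap among the 6 was at Unc5d, with 24 and 33 peaks in the EXT lists and 20 in RC replicate 3. Epha4 had 18 and 19 in the EXT lists and 16 in RC replicate 3. RC replicate 1, which also reaches Epha4, had 23 there, above both EXT lists, so the order did not hold against that library. Neither count of members has a second complete RC list to set it against.

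The peaks of the 3 lists joined into 1076 regions within the members' spans. Of these, 229 (21.3%) were found in all 3 lists, beside 28.1% over all protein-coding genes, and 45 (4.2%) in both EXT lists only, beside 4.2%. Regions in RC replicate 3 only numbered 143 (13.3%), beside 11.3%. Away from the end windows lay 206 of the regions found in all lists, and 42 of these (20.4%) were at most 161 bp wide. The interior regions were ranked by the lowest of their 3 percentiles. Of the first 15, 12 were this narrow and 12 lay in receptor genes, 3 of them in Ephb1 and 2 each in Robo2 and Dcc. Receptor genes, which are longer, held 124 of the 206 (60.2%). Wider regions among the 15 were those in Plxnb3 (535 bp), Ephb1 (720 bp) and Plxna4 (604 bp). The Plxnb3 region, in the gene of a class B plexin that had no end peak, had folds of 8.37 and 16.19 in the EXT lists and 10.40 in RC replicate 3. In the members' spans EXT replicate 1 shared 59.9% of its bases with EXT replicate 2 and 60.1% with RC replicate 3, and EXT replicate 2 shared 28.5% of its bases with EXT replicate 1 and 43.0% with RC replicate 3. RC replicate 3 shared 41.5% with EXT replicate 1 and 62.5% with EXT replicate 2. The lists cover unequal numbers of bases (106988 in EXT replicate 1, 225062 in EXT replicate 2 and 154980 in RC replicate 3), which bounds these shares, so no order of likeness is read from them.

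More than 1 RC list reached 3 members, Sema4c, Nrp2 and Epha4, and these allowed a test between groups. Peaks over the span and 1 kb either side numbered 3 and 2 for Sema4c in EXT replicates 1 and 2, against 4, 3 and 3 in RC replicates 1, 2 and 3. For the neuropilin gene Nrp2 they numbered 7 and 13 in EXT, against 14 and 8 in RC replicates 1 and 3. Epha4, a receptor for both classes of ephrin, had 18 and 20 in EXT, against 24 and 17 in RC replicates 1 and 3. The groups overlapped in all 3 genes. Without the 1 kb either side, Sema4c held 3 and 2 peaks in EXT, against 3, 2 and 3 in RC replicates 1, 2 and 3. Among all chromosome 1 genes, the EXT lists were higher than RC without overlap in 0.637% and lower in 1.27% of the 157 genes that all 5 lists reach, and in 2.32% and 4.12% of the 776 that 4 lists reach. The differences were -0.833 peaks for Sema4c (two-sided exact permutation p = 0.6), -1.0 for Nrp2 (p = 0.667) and -1.5 for Epha4 (p = 1.0), and the Benjamini-Hochberg adjusted p over 933 genes was 1.0 for each. These sizes allow no p under 0.1 for Sema4c and none under 0.333 for the others, so the tests say little about whether the groups differ. Without RC replicate 1 the differences were 2.0 for Epha4 and 2.0 for Nrp2, so their sign depended on that library. Without EXT replicate 1 the Nrp2 difference was also 2.0.

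**Figure D5:**
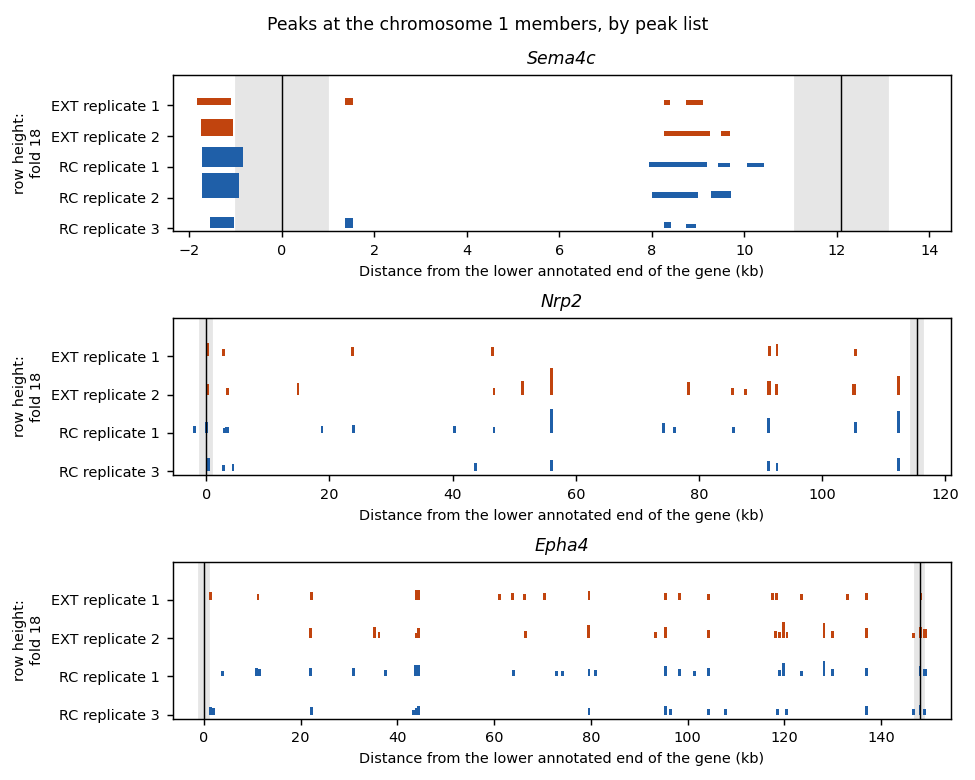
Bars mark peaks by distance in kb from the lower annotated end of Sema4c, Nrp2 and Epha4, with height proportional to fold enrichment and very narrow peaks drawn at a minimum width; EXT lists (orange) lie above RC lists (blue), vertical lines are gene ends and grey bands the 1 kb either side. The Sema4c peak by its 3′ end reaches the band in RC replicates 1 and 2 and stops short of it in EXT replicates 1 and 2 and RC replicate 3.

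The individual peaks of these genes recurred across groups. By the 3′ end of Sema4c, the gene of a membrane semaphorin that signals through plexin-B2, a peak had folds of 4.24 and 10.0 in EXT replicates 1 and 2, against 11.58, 14.38 and 6.47 in RC replicates 1, 2 and 3. It stopped 99 and 51 bp short of the end window in the EXT lists and 40 bp short in RC replicate 3, and it overlapped the window in RC replicates 1 and 2. The call of no end peak for Sema4c thus rests on those distances. This peak lay outside the Sema4c span in every list. Ankrd39 and Fam178b, their spans taken with 1 kb either side, also reach an end window of Sema4c. In Nrp2 a 160 bp peak at chr1:62759084-62759243 had a fold of 12.44 in EXT replicate 2, against 11.31 and 5.20 in RC replicates 1 and 3, and none was called in EXT replicate 1. The peak at the 5′ end of Nrp2 ended at 62703629 in each of the 4 lists that reach it.

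In sequence, promoters of the members were richer in CpG sites and GC boxes than those of all protein-coding genes. RefSeq lists 76 starts for 60 of the members, and their windows had a median CpG observed over expected of 0.66, beside 0.57 over all 21262 windows. The GC box GGGCGG, which binds Sp1-type factors, was found on either strand in 71.1% of members' windows and 46.2% of all windows. A peak overlapped 40.8% and 60.5% of the members' windows in the EXT lists and 42.1% in RC replicate 3, beside 42.1% and 50.4% in the EXT lists and 43.9% in RC replicate 3 over all windows. Windows of members with a peak in all 3 lists (23) had a median CpG ratio of 0.78, and those with a peak in none (28) had 0.41, beside 0.81 and 0.23 over all genes. The GC box did not part the members as sharply, at 73.9% and 64.3%. Over all genes it did part the windows, at 70.1% and 22.3%.

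Of the other 4 motifs searched, the Egr core alone was above its share over all windows. The core of the CRE, TGACGT, stood in 5.3% of the members' windows and 8.5% of all windows, and the AP-1 motif TGACTCA in 2.6% and 4.7%. The Egr core GTGGGCG, which can overlap a GC box, stood in 11.8% and 10.2%, and the E-box CACGTG in 6.6% and 7.8%. Both strands were searched, and the counts in the members' windows were 4, 2, 9 and 5. A match is a run of letters in these windows and no measured site.

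Other genes of the pathway differed in how often their ends were open. Of 42 genes for cytoplasmic effectors, which relay guidance signals to the cytoskeleton, 34, 39 and 34 had an end peak in EXT replicate 1, EXT replicate 2 and RC replicate 3 (81.0%, 92.9% and 81.0%), and 31 had one in all 3 lists. Rac1, Rhoa and Cdc42, the small GTPases on which plexin and Eph signals converge, were among those 31, and Dpysl3, Vav3 and Fes had none in any list. Of 15 other guidance ligands and co-receptors, 6, 11 and 7 had an end peak (40.0%, 73.3% and 46.7%). The netrin and repulsive guidance receptor gene Neo1 had one in all lists, while Rgma and Rgmb, which encode its ligands, had none. The effector genes were above the guidance ligands and receptors in each list, and above all protein-coding genes (53.3%, 61.1% and 56.0%). The sets were not matched for gene length. No test was made, since the lists were chosen with earlier results known.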

How the data were processed

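Members, classes and lists were chosen with earlier results of these data known. Peaks had been called library by library by the authors, per the file headers, using MACS2 2.2.4 with no control, a shift of -75 bp, an extension to 150 bp, all duplicates kept and a q-value cutoff of 0.05. The submitters' processing notes name the build mm10 and the aligners HISAT2 2.1.0 and BWA 0.7.17, without saying which served these libraries. The deposited fold enrichment is a ratio of the pileup, a coverage signal, to local background. The deposited −log10 p-values and −log10 q-values rest on that background too. Percentiles of fold were taken within each list only. Where folds are ordered between lists, they are the deposited values and were not scaled. The median fold was 3.7 in EXT replicate 1, 4.41 in EXT replicate 2 and 3.87 in RC replicate 3. Kept duplicates can raise peaks resting on few molecules.

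Gene spans came from RefSeq (GRCm38.p6). EXT replicate 2 was taken by its title, since its file name carries another number. EXT replicate 3 and the RNA libraries were not analysed here. In each of the lists of RC replicates 1 and 2, 1 incomplete line was dropped. Shares carry exact (Clopper-Pearson) 95% intervals, and for chromosome 1 members an exact two-sided permutation test over libraries was run with Benjamini-Hochberg adjustment (statsmodels 0.14.6), where p measures the spread between pools. Tested on simulated peaks placed at 200 genes, the overlap counts were recovered at 200 for spans and at 200 for ends. Total tags, 57.7 to 73.8 M, set the depth.

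Named were chromosome 1 members that at least 2 RC lists reach, the 5 ligands and 5 receptors with the best-ranked end peaks in all 3 lists, members with an end peak in no complete list or in 1 group only, those with most peaks inside (5 by number, 3 per 100 kb), and all Slit, Robo, netrin, Unc5, Dcc and neuropilin genes. Alternatives were other windows, stricter or equal-length lists, summits, a 50% overlap, no narrow peaks, each library left out, scaling to list length, Unc5cl as a receptor, the mean and a replicate block. Classes of span and members without a neighbouring gene were added after seeing the data.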

Additional observations from a re-analysis of the deposited data

How the results depend on the processing

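The ligand less receptor share with an end peak, 1.96 percentage points as reported, was -8.38 with 500 bp windows, 8.96 at a −log10 q of at least 5 (SD 4.7), 6.02 with lists of equal length (SD 1.72), -20.39 for spans of 100 kb and over, 35.19 under 30 kb and 13.33 for 30 to 100 kb, and leaving out each library gave -0.546 to 5.34. The cause was not tested. The difference in median peaks per 100 kb, 0.245, moved by less than its SD of 2.09 under every alternative run, was 1.32 without peaks of 160 bp or less (SD 0.78) and 0.828 for the mean (SD 0.42), and was -0.7 to 1.36 with a library left out. The EXT less RC share of members, 1.43, was 12.86 at a −log10 q of at least 5, 3.57 with lists of equal length (SD 1.01) and -5.71 to 8.57 without an EXT list. Members open at an end in both EXT lists but not RC replicate 3, 3 as reported, numbered 6 at a −log10 q of at least 5, 5 with lists of equal length and 5 without peaks of 160 bp or less. They numbered 2 at the 5′ end only, 2 at a 50% overlap and 2 among members with no other coding gene at their ends. Without an EXT list they numbered 4 to 8, where fewer lists are asked for a peak. For RC replicate 3 and neither EXT list, 0 as reported, the count was 1 with lists of equal length and 2 to 8 without an EXT list, where fewer lists are asked for no peak.

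On chromosome 1, the Epha4 difference was 0.12 when scaled to 1000 peaks of each list, and leaving out each library gave -5.0 to 2.0. The Nrp2 difference was 1.0 at a −log10 q of at least 5, and -4.0 to 2.0 with a library left out. For Sema4c, leaving out each library gave -1.333 to -0.333. The Sema4c difference was -0.167 with summits in place of peaks and -0.167 at a −log10 q of at least 5. It was -1.167 without peaks of 160 bp or less. At Sema4c alone the groups share 2 replicate numbers, and the replicate block gave -1.0 there (exact permutation p = 0.5). No paired analysis was possible because, for every other result, the groups share fewer than 2 replicate numbers among the lists that reach it.

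The main limits are the single complete RC list, the lack of read counts per region, and the unequal list lengths, since EXT replicate 2 has the fewest tags and the most peaks.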
